A study of Mus musculus with 12 samples.

Results

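The 5′ UTRs of 7 genes that carry small nucleolar RNAs, Tcp1, 2410002F23Rik, Rabggtb, Cnot1, Ddx39b, Gsk3b and Rack1, collected 1425 of the 15767 eIF4G2 CLIP tags counted on 3366 named 5′ UTRs of mouse primary cortical neurons. They were thus 0.208% of the 5′ UTRs and held 9.04% of the tags. The genes were selected on these tag counts, as heavily tagged 5′ UTRs, and because a small nucleolar RNA gene lies within each, so their high totals are a description and not a result. eIF4G2 CLIP crosslinks the protein to RNA in living cells with ultraviolet light, recovers it with an antibody and sequences the attached RNA fragments as tags. The libraries came from cortical cultures kept 12 days in vitro, either resting or depolarized. Depolarized cultures received tetrodotoxin and DL-AP5 for 2 h, then 55 mM KCl for 1 h and 30 min of recovery. Cultures of both conditions were treated with cycloheximide for 2 min before harvest and crosslinked with pulses of 400 and 200 mJ per square cm, and each replicate was made from 3 dishes. No genotype, transgene or knockout separates the groups, and no input RNA was used here. The labels give 6 replicates per condition, but depolarized replicate 5 held the same count as resting replicate 5 on every 5′ UTR, so these values were used once, as resting replicate 5, which left 6 resting and 5 depolarized libraries. Which condition they belong to could not be settled here. In such bulk libraries, fewer cells of a type and less RNA per cell cannot be told apart, nor can more RNA and more binding per RNA.

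Small nucleolar RNAs are short RNAs that guide chemical modification of ribosomal and spliceosomal RNA. In mammals most lie in introns of host genes and are released when the intron is spliced out and trimmed, protected by core proteins bound to box C/D or box H/ACA elements. Many hosts encode proteins of translation or RNA metabolism, and a host's transcript isoforms can retain the intron that holds the small RNA. eIF4G2 is a translation initiation factor related to eIF4G that lacks the part binding the cap-binding protein eIF4E.

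By the GENCODE M21 annotation (GRCm38), all 7 genes hold at least 1 small nucleolar RNA gene on their own strand, but only 3 have one that overlaps an annotated 5′ UTR. 2410002F23Rik (chromosome 7, 44246722 to 44252319, plus strand) has 3 of its 4 small RNAs there, Gm26247, Gm23991 and Snord88a. Rabggtb (chromosome 3, 153907287 to 153913009, minus strand) has Snord45c, and Ddx39b (chromosome 17, 35241746 to 35253707, plus strand) has Gm22589. In Rack1 (chromosome 11, 48800332 to 48806434, plus strand) Gm25296, Snord96a and Snord95 overlap exons of annotated transcripts but no 5′ UTR. Tcp1 (chromosome 17, 12915701 to 12925067, plus strand) holds Gm26130 in exons of 3 transcripts and Snora20 in no exon. The small RNAs of Cnot1 (chromosome 8, 95719451 to 95807464, minus strand), Gm26265 and Gm26493, and that of Gsk3b (chromosome 16, 38089001 to 38246084, plus strand), Gm25617, overlap no exon. Tags were counted over the 5′ UTR of each gene's longest UCSC transcript, whose coordinates were not used here, so whether a small RNA lies inside a counted interval was not tested, and tags from a small RNA inside it and tags from the mRNA cannot be told apart.

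The small RNAs that overlap a 5′ UTR are shown by their first or last 30 bases, 5′ to 3′ on their own strand, because these ends hold the boxes that set the class. The sequences are from GENCODE M21, and capitals mark box C (TGATG, searched in the first 20 bases) or box D (CTGA, searched in the last 15 bases). Snord88a lies at 44250135 to 44250224, Gm26247 at 44248090 to 44248180 and Gm23991 at 44250450 to 44250542 of chromosome 7, Snord45c at 153912125 to 153912204 of chromosome 3 and Gm22589 at 35242678 to 35242754 of chromosome 17.
Snord88a, first 30 bases: ggaccccctTGATGtccagcactgggctct
Gm26247, first 30 bases: aggctcctgTGATGtttagcactgggctcc
Gm23991, first 30 bases: gaacccccaTGATGtatatagcactgggct
Snord45c, first 30 bases: ggtcaaTGATGagctggcatgtattctgaa
Snord45c, last 30 bases: actttagctctagaattactCTGAgacctg
Gm22589, first 30 bases: gccacaTGATGtttgcatttgggaagtgag
Gm22589, last 30 bases: acccttatctatcacccttgaCTGAtggct
All 5 hold both boxes, as do 22.6% of the 1558 annotated small nucleolar and small Cajal body RNAs. In Rack1, Snord95 (48803139 to 48803206) and Gm25296 (48800866 to 48800932) end in the same 30 bases, shown once because the pair of copies cannot be separated by tags on that end.
Snord95 and Gm25296, last 30 bases: tgctgaaatccagaggctgtttCTGAgctg
The small RNAs of the other hosts are longer. Of these, Snora20 of Tcp1 (chromosome 17, 12922790 to 12922917), both of Cnot1 and that of Gsk3b end in ACA followed by 3 bases, the mark of the box H/ACA class, shown in capitals for Snora20 and for Gm26265 of Cnot1 (chromosome 8, 95756950 to 95757084). A terminal ACA (within the last 8 bases) was found in 63.5% of the 1048 annotated small RNAs of over 110 bases, and Gm26130 of Tcp1 matched neither class.
Snora20, last 30 bases: ttttgtctctcgtacatggtctagACAttg
Gm26265, last 30 bases: gaactgctcttttaaaaacaaggtACAttt

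A run of pyrimidines at the transcription start is the known mark of mRNAs of the translation apparatus. A run of at least 5 C or T that crossed the RefSeq start (GRCm38.p6) or came within 5 bases of it was searched. It was found for 3 of the 6 genes with an entry and for 35.1% of all 27025 genes with one, each taken at its longest run. Rack1 had the longest, 16 bases, shown here in capitals within chromosome 11, 48800345 to 48800374, plus strand, beside Tcp1 with 5 bases (chromosome 17, 12916314 to 12916343, plus strand).
Rack1 start: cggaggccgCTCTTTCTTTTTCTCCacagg
Tcp1 start: gcagccccctaCTTCCggcgttttcagttt
Runs of at least 8 bases were present for 10.96% of all genes with an entry and for 1 of the 6. The motif CGCGGC, searched on the transcript strand, was in the 5′ UTR of the longest annotated transcript of 3 of the 7 genes, Tcp1, Ddx39b and Gsk3b, and in 36.7% of those of all listed genes.

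The 11 libraries held between 264 and 5240 tags, 12384 in replicates 1 to 3 and 3383 in replicates 4 to 6, and between 144 and 1697 5′ UTRs had a tag in a library. In a library with no tag on a gene, a count of 0 allows a share of up to between 0.0573% and 1.14% of the library, a limit for counting error only, as are all intervals given here, since amplified reads are not independent molecules. Of the neuronal marker genes examined, 8 of 11 were listed, all with a tag, 172 in all, between 0.186% and 4.25% of a resting library and between 0.546% and 1.92% of a depolarized one. The listed markers of other cells were Slc1a2 of astrocytes with 10 tags and Aif1 of microglia with 1, and no oligodendrocyte marker was listed, so Gfap, Cx3cr1 and Mbp have no value here.

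Tcp1 and 2410002F23Rik were the 2 most heavily tagged 5′ UTRs of all, with 527 and 390 tags over the 11 libraries, and Rabggtb was the third with 208. Cnot1 and Rack1 had 93 tags each, Ddx39b 63 and Gsk3b 51, which ranked 31 among all 5′ UTRs. The nearest host genes outside the group were Eif4g2 itself and Negr1, with 31 tags each. Per length the order differed. With the 5′ UTR of the longest annotated transcript as the length, Tcp1 had 286 tags per 100 bases, Rack1 89.4, Rabggtb 82.5, Cnot1 30.7, 2410002F23Rik 15.2, Ddx39b 4.60 and Gsk3b 3.34, where the median of tagged 5′ UTRs was 0.733. By the GENCODE annotation this 5′ UTR of 2410002F23Rik is 2561 bases long and that of Rack1 104. With these lengths 2410002F23Rik, second in tags, ranked 57 per length, and Rack1 ranked 8. Tags were counted over UCSC transcripts, whose 5′ UTRs may differ in length, so the values and ranks per length are approximate.

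**Figure D1:**
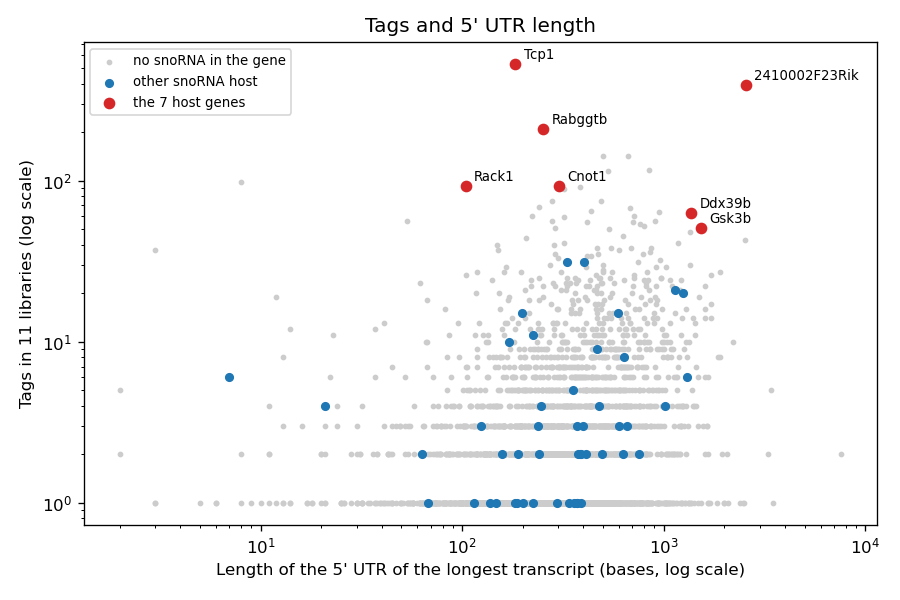
Tags in 11 libraries (vertical axis, log scale) against the length of the 5′ UTR of the longest annotated transcript in bases (horizontal axis, log scale), 1 point per tagged 5′ UTR, with the 7 host genes in red, other small nucleolar RNA hosts in blue and genes without such an RNA in grey. The red points span 104 to 2561 bases and 51 to 527 tags, and the highest blue points are at 31 tags.

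Of the 3366 listed genes, 56 held such an RNA on their own strand, the 7 genes and 49 others. The 49 others are those left after the 7 had been taken for their many tags, so they are not a sample of all hosts. They had 258 tags together and a median of 2, and the 3279 listed genes that host none also had a median of 2. At least 10 tags were found for 8 of the 49 (16.3%) and for 299 of the genes that host none (9.12%). None of the 49 had a small RNA overlapping an annotated 5′ UTR. Besides Eif4g2 and Negr1, St3gal2 had 21 tags and Map2 and Prrc2b had 15 each. These 5 genes had most of their tags in replicates 1 to 3, from 12 to 28 tags each, against 0 to 3 in replicates 4 to 6. Replicates 1 to 3 also held 12384 of the 15767 tags on all 5′ UTRs, so having most tags there does not set these genes apart.

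The share of library tags on the 7 genes overlapped between conditions and was apart between replicate numbers. At rest it was 4.81%, 6.20% and 9.48% for numbers 1, 2 and 3, but 32.1%, 28.4% and 27.7% for numbers 4, 5 and 6. After depolarization numbers 1, 2 and 3 gave 2.33%, 1.99% and 2.23%, while numbers 4 and 6 gave 35.3% and 30.7%. Every library of replicates 4 to 6 was therefore above every library of replicates 1 to 3, with means of 30.9% ± 3.06 (SD, n = 5) and 4.51% ± 2.96 (SD, n = 6), while resting and depolarized libraries overlapped, with means of 18.1% ± 12.6 (SD, n = 6) and 14.5% ± 17.0 (SD, n = 5). The genes were chosen with the difference between replicate numbers known, so it is given as a description. Depth differed between the groups of replicates as well, and its part in the difference was not tested. Resting replicates 2 and 3 had 371 and 306 tags with shares of 6.20% (95% Wilson interval 4.17 to 9.13) and 9.48% (6.68 to 13.3), and depolarized replicate 6 had 264 tags with a share of 30.7% (25.4 to 36.5). The labels name no batch, date or run for these numbers.

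**Figure D2:**
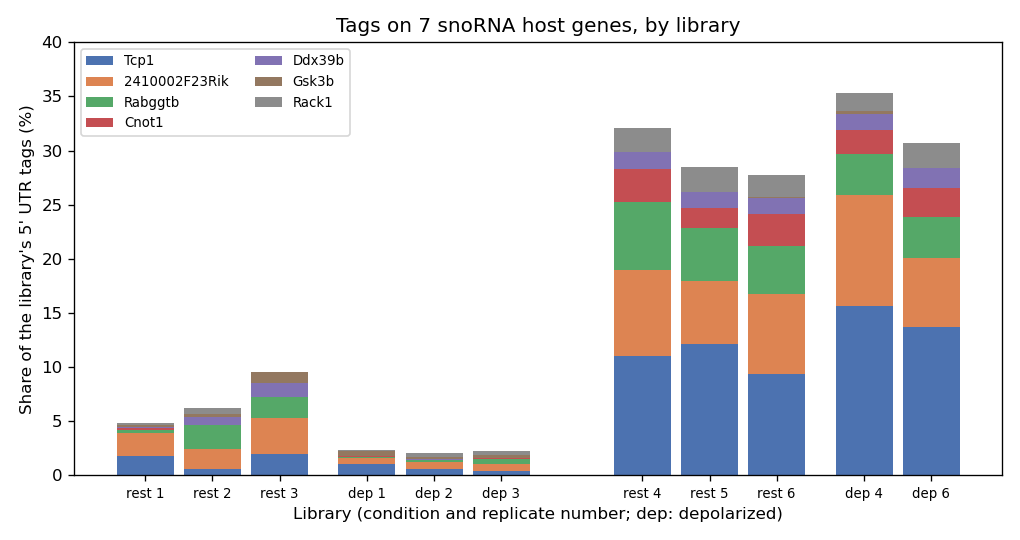
Stacked bars give the share of a library's 5′ UTR tags, in percent, that fell on each of the 7 host genes, with replicates 1 to 3 on the left and replicates 4 to 6 on the right. The bars on the left reach between 1.99% and 9.48%, those on the right between 27.7% and 35.3%.

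Among the hosts with a small RNA in a 5′ UTR, 2410002F23Rik, a gene without an assigned name, collected 70, 7 and 10 tags at rest in replicates 1 to 3, against 58, 54 and 68 in replicates 4 to 6. After depolarization it had 29, 6 and 15 tags in replicates 1 to 3 and 56 and 17 in replicates 4 and 6. As a share of the library this was between 0.553% and 3.27% in replicates 1 to 3 and between 5.82% and 10.2% in replicates 4 to 6, with no overlap. Within replicates 1 to 3 each depolarized library, from 0.553% to 0.656%, was below each resting library, from 1.89% to 3.27%, an order that replicates 4 to 6 did not show.

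Rabggtb encodes the catalytic beta subunit of the enzyme that attaches geranylgeranyl lipids to Rab GTPases. Resting replicates 1 to 3 gave it 9, 8 and 6 tags, resting replicates 4 to 6 gave 46, 46 and 40, and it had 9, 2 and 11 tags in depolarized replicates 1 to 3 and 21 and 10 in replicates 4 and 6. Its share was lower in the depolarized library in 5 of 5 pairs with the same number, with differences between -0.107 and -2.48 percentage points, and was the only share among the 7 genes to go the same way in every pair. Ddx39b, a helicase of splicing and mRNA export, had 2, 3 and 4 tags from resting replicates 1 to 3 against 12, 14 and 14 from resting replicates 4 to 6. In depolarized replicates 1 to 3 it had 0, 1 and 0 tags, and the zeros allow shares of up to 0.0573% and 0.131%. In depolarized replicates 4 and 6 it had 8 and 5 tags, 1.46% and 1.89% of the library, above both conditions of replicates 1 to 3.

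Rack1, a scaffold protein of the small ribosomal subunit, had 5, 2 and 0 tags from resting replicates 1 to 3, against 16, 21 and 18 from replicates 4 to 6. It had 4, 3 and 9 tags in depolarized replicates 1 to 3 and 9 and 6 in replicates 4 and 6. The shares of replicates 4 to 6 lay close together, between 1.64% and 2.27%, and those of replicates 1 to 3 between 0% and 0.539%, where the 0 in resting replicate 3 allows up to 0.980%.

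Of the hosts of H/ACA RNAs, Tcp1 encodes a subunit of the chaperonin that folds actin and tubulin. It had 56, 2 and 6 resting tags in replicates 1 to 3 and 80, 112 and 85 in replicates 4 to 6, and 51, 5 and 8 tags in depolarized replicates 1 to 3 and 86 and 36 in depolarized replicates 4 and 6. Its mean share was 6.10% ± 5.23 (SD, n = 6) in the resting and 6.23% ± 7.72 (SD, n = 5) in the depolarized libraries. The depolarized share was lower in replicates 1, 2 and 3, with differences of -0.764, -0.0155 and -1.61 percentage points, and higher in replicates 4 and 6, with differences of 4.69 and 4.33.

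Cnot1, the scaffold of the CCR4-NOT deadenylase that shortens mRNA tails, had 5, 0 and 0 tags in resting and 2, 0 and 1 in depolarized replicates 1 to 3, where the zeros allow up to 0.809%, 0.980% and 0.314%. In replicates 4 to 6 it had 22, 17 and 27 resting tags, and 12 and 7 depolarized tags in replicates 4 and 6, between 1.83% and 3.02% of the library. Gsk3b is a protein kinase of Wnt and insulin signalling, and its shares overlapped between the groups of replicates. It had 8, 1 and 3 tags in resting and 27, 2 and 7 in depolarized replicates 1 to 3, whereas replicates 4 to 6 gave it 0, 0 and 1 tags at rest and 2 and 0 after depolarization. Its share in replicates 1 to 3 was 0.421% ± 0.294 (SD, n = 6), and the zeros in replicates 4 to 6 allow up to 0.412%, 0.323% and 1.14%.

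**Figure D3:**
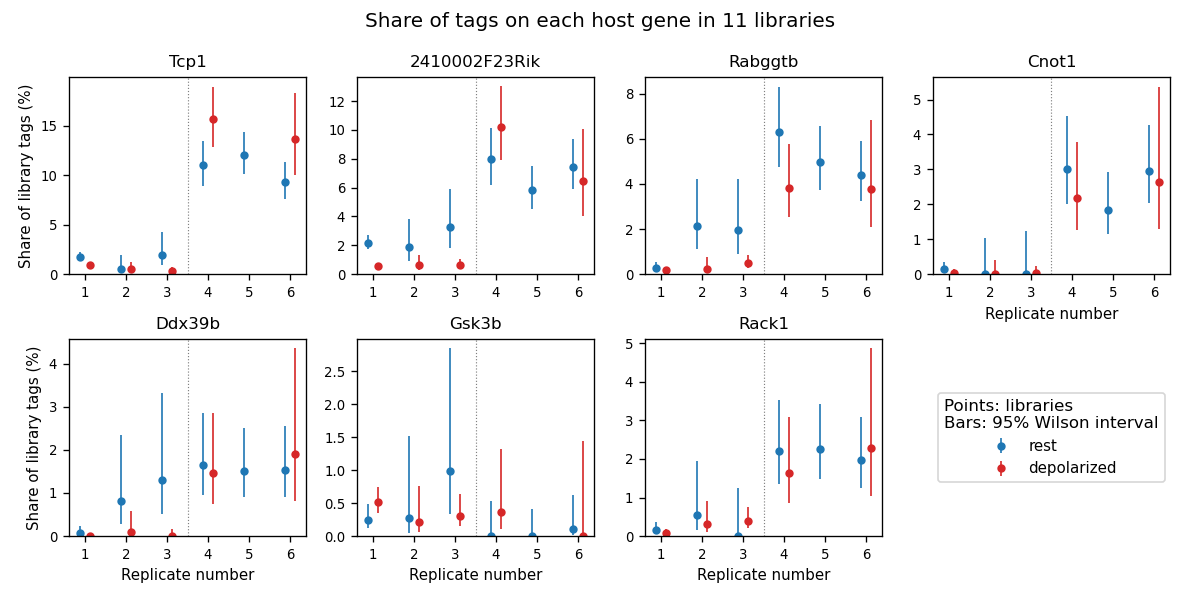
Share of library tags in percent (vertical axis, a separate scale per gene) by replicate number (horizontal axis), with resting libraries in blue, depolarized in red and 95% Wilson intervals as bars. For 6 genes the points to the right of the dotted line lie above all those to the left, and for Gsk3b they lie at 0 to 0.364%.

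The genes also differed in how they divided the tags they shared. Of the 399 tags on the 7 genes in replicates 1 to 3, 34.3% (95% Wilson interval 29.8 to 39.1) were on 2410002F23Rik and 32.1% (27.7 to 36.8) on Tcp1. Of the 1026 tags in replicates 4 to 6, 24.7% (22.1 to 27.4) were on 2410002F23Rik and 38.9% (35.95 to 41.9) on Tcp1. Cnot1 went from 2.01% (1.02 to 3.91) to 8.28% (6.75 to 10.1) and Gsk3b from 12.03% (9.19 to 15.6) to 0.292% (0.0995 to 0.856). These intervals cover counting error only, not the spread between libraries. In the single libraries of replicates 4 to 6, which had 81 to 264 tags on the 7 genes, between 33.6% and 44.4% were on Tcp1 and between 20.5% and 28.9% on 2410002F23Rik. In those of replicates 1 to 3, with 19 to 155 tags, the ranges were 8.70% to 41.8% and 23.8% to 45.2%, which overlap with the former and, at 8.70%, rest on 2 of 23 tags.

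Whether depolarization changed the tags on these genes was tested with edgeR's quasi-likelihood test on the counts of the 317 5′ UTRs that had 10 tags or more, after Benjamini-Hochberg adjustment. All 7 genes entered the test, and none passed the adjusted threshold of 0.05. Over all 317, 0 were higher and 0 lower (0% called in each direction, with 24 and 1 at an unadjusted P below 0.05, and with DESeq2 0 and 0, with 5 and 0 unadjusted). The log2 difference, depolarized minus rest, was -0.94 (SE 1.19) for Rabggtb, -0.83 (SE 1.19) for Ddx39b, -0.71 (SE 1.20) for Cnot1 and -0.37 (SE 1.13) for 2410002F23Rik. It was -0.43 (SE 1.19) for Rack1, -0.08 (SE 1.10) for Tcp1 and 0.94 (SE 0.98) for Gsk3b. Their adjusted P values ran from 0.862 to 0.995 by edgeR's quasi-likelihood test. The median log2 difference of all 317 was 0.52, 0.38 with library totals in place of TMM scaling, and 1.16 with DESeq2, which changes the model as well. Relative to the TMM-scaled median Gsk3b stood 0.42 above and the other genes between 0.60 and 1.46 below. With replicate numbers as a block, which pairs the libraries, adjusted P was 0.996 for each of the 7 and Rack1 changed sign to 0.08. The standard error was smaller under the block for 6 of the 7 and larger for Gsk3b, at 1.23, with a log2 difference of -0.10 (SE 0.45) for Tcp1, -0.72 (SE 0.51) for 2410002F23Rik and -0.89 (SE 0.67) for Rabggtb.

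The same kind of fit describes, for genes selected with this split in view, the values that chose them, and nothing about them is read from its calls. With condition as a covariate, 8 of the 317 5′ UTRs were higher in replicates 4 to 6 than in replicates 1 to 3 (2.52%) and 5 were lower (1.58%), by edgeR's quasi-likelihood test with Benjamini-Hochberg adjustment. Of the 8, 6 were Tcp1, 2410002F23Rik, Rabggtb, Cnot1, Ddx39b and Rack1, and the other two were Zbtb10 and Itsn1. This fit takes both libraries of a replicate number as separate samples although the numbers were taken to pair them. With 1 library per number, 2410002F23Rik (log2 difference 1.47) and Ddx39b (1.90) no longer passed in resting libraries alone, nor did Rabggtb (2.92) and Rack1 (2.15) in depolarized libraries alone, and Rack1 did not pass without replicate 5 (2.67) or without replicate 6 (2.91). The log2 difference was 4.53 (SE 0.83) for Cnot1, 3.23 (SE 0.46) for Tcp1, 3.19 (SE 0.86) for Ddx39b, 2.69 (SE 0.78) for Rack1, 2.68 (SE 0.59) for Rabggtb and 2.25 (SE 0.49) for 2410002F23Rik. That of Gsk3b was -2.08 (SE 1.06), where the median of all 317 was -1.19. By shares without a model, 10 of the 317 (3.15%) lay higher in every library of replicates 4 to 6 than in any of replicates 1 to 3, the 6 genes with Zbtb10, Stim2, Cited2 and Itsn1 (Stim2 is named after its values were seen), while 1 of the 317 (0.315%) and none of the 7 was apart between conditions.

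**Figure D4:**
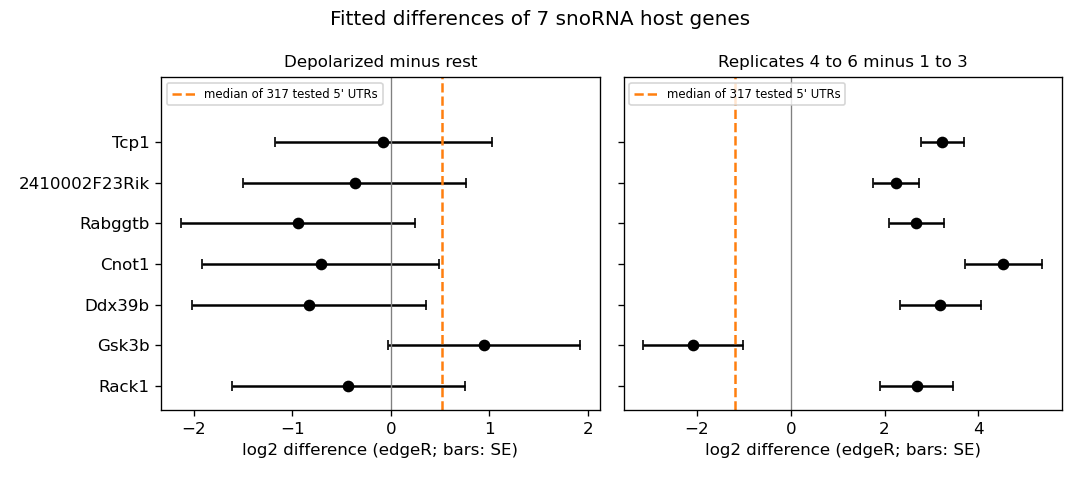
Log2 differences of the 7 host genes fitted by edgeR (points, bars are standard errors), for depolarized minus rest on the left and replicates 4 to 6 minus 1 to 3 on the right, with the median of 317 tested 5′ UTRs as a dashed line. On the left the values lie between -0.94 and 0.94 and every bar crosses 0, and on the right 6 genes lie between 2.25 and 4.53 and Gsk3b at -2.08.

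Whether the effect of depolarization itself differed between the groups of replicates was tested as an interaction. The log2 value was positive for 6 of the 7 genes, where the median of all 317 was -1.29, and 3.53 (SE 1.66) for Ddx39b, the farthest from 0, with adjusted P = 0.957 by edgeR's quasi-likelihood test with Benjamini-Hochberg adjustment. Of the 317 5′ UTRs 0 passed in either direction (0%, with 3 and 7 at an unadjusted P below 0.05, and no other tool was run). The value of Ddx39b rests on 1 depolarized tag in replicates 1 to 3, and was 5.04 without replicate 2 and 2.31 without replicate 3.

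The study's methods name a binomial test on depth-normalized tags without saying how libraries were combined. Here tags were summed over all libraries of a condition and compared by an exact binomial test at P below 0.2, which compares 2 pools of tags, not replicates. In it 148 of 3280 5′ UTRs had fewer tags after depolarization (4.51%) and 171 had more (5.21%), a split that moved to 90 and 233 at TMM library sizes. Of the 7 genes 6 had fewer and Gsk3b had more. The resting and depolarized sums were 341 and 186 tags for Tcp1, 267 and 123 for 2410002F23Rik, 155 and 53 for Rabggtb, 71 and 22 for Cnot1, 62 and 31 for Rack1, 49 and 14 for Ddx39b, and 13 and 38 for Gsk3b. Scaled to the totals of 6471 and 9296 tags, these gave log2 ratios from -2.32 for Ddx39b to -1.40 for Tcp1 among the 6, and 1.02 for Gsk3b (exact binomial test, P = 0.0293, adjusted P = 0.967). Replicates 4 to 6, in which the 6 genes were high, made up 39.7% of the resting pool and 8.75% of the depolarized pool. Without replicate 5, which held 112 of the resting Tcp1 tags, the log2 ratio was -1.05 for Tcp1, between -2.06 and -1.15 for the other 5 that had fewer, and 0.80 for Gsk3b. Without replicate 4 the ratios went farther from 0 for the 6, to -1.99 for Tcp1, -2.25 for 2410002F23Rik, -2.89 for Cnot1 and -3.21 for Ddx39b.

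Within the groups of replicates the ratios departed from those of the pools. The ratio of the share of depolarized to the share of resting tags for Tcp1 was 0.380 (95% counting interval 0.316 to 0.455) over all libraries, 0.460 (0.320 to 0.661) in replicates 1 to 3 and 1.39 (1.12 to 1.73) in replicates 4 to 6, so its direction turned. For 2410002F23Rik it was 0.321 (0.257 to 0.399) over all libraries, 0.264 (0.183 to 0.378) in replicates 1 to 3 and 1.28 (0.963 to 1.69) in replicates 4 to 6. Rack1 stood at 0.348 (0.219 to 0.544) over all libraries but at 1.05 (0.409 to 3.02) and 0.862 (0.452 to 1.55) within the groups, where neither interval excluded 1. Rabggtb was below 1 throughout, at 0.440 (0.234 to 0.826) in replicates 1 to 3 and 0.742 (0.485 to 1.10) in replicates 4 to 6. For Cnot1 the values were 0.276 (0.0428 to 1.42) and 0.910 (0.516 to 1.53). Ddx39b rested on 1 depolarized tag against 9 in replicates 1 to 3, a ratio of 0.0511 (0.00117 to 0.369), and stood at 1.03 (0.504 to 1.96) in replicates 4 to 6. Gsk3b had 36 tags against 12 in replicates 1 to 3, a ratio of 1.38 (0.702 to 2.91), and 3 tags in all in replicates 4 to 6, too few for a ratio.

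**Figure D5:**
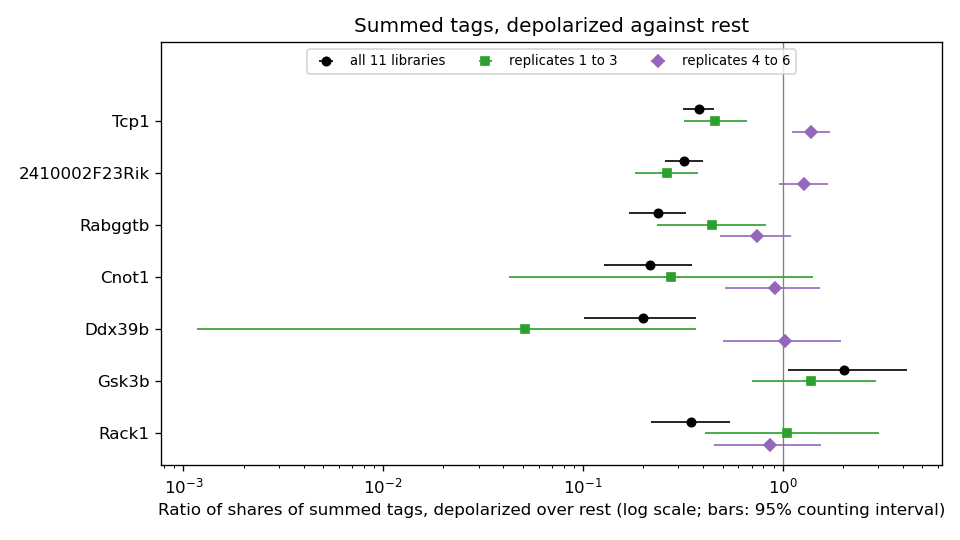
Ratio of the depolarized to the resting share of summed tags (horizontal axis, log scale) for each host gene, over all 11 libraries (circles), in replicates 1 to 3 (squares) and in replicates 4 to 6 (diamonds), with 95% counting intervals as bars and a line at a ratio of 1. For Tcp1 the circle is at 0.380 and the diamond at 1.39, and for Rack1 the circle is at 0.348 with both group values near 1.

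Genes that work with these 7 were counted from lists, of which few members were listed, and a gene that is not listed has no value. Over all 5′ UTRs with a tag the median was 2 tags, and 1374 had 1. Of the 9 core proteins of small nucleolar particles only Fbl, the methyltransferase of box C/D particles, was listed, with 1 tag, and none of 13 assembly factors was listed. Of 16 chaperonin and prefoldin genes other than Tcp1, Cct4 had 8 tags and Pfdn6 had 1, and none of 7 genes of Rab prenylation other than Rabggtb was listed. Among 19 deadenylation genes other than Cnot1, 8 were listed, with 17 tags together and 4 at most, on Tob1. Of 16 mRNA export genes other than Ddx39b, 4 were listed, with 7 tags. Of 13 genes of Wnt and Gsk3 signalling other than Gsk3b, 7 were listed with 25 tags, and Ctnnb1, beta-catenin, was the only one tested, with 11 tags and a log2 difference of 0.09 (SE 1.19) between conditions, adjusted P = 0.995 by edgeR's quasi-likelihood test. Of the genes of the small ribosomal subunit, to which Rack1 binds, Rps15 and Fau had 1 tag each. None of these genes passed the edgeR test for condition, which only Ctnnb1 had enough tags to enter, and none had as many tags as any of the 7.

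Among 56 other 5′ UTRs with at least 30 tags, the share of library tags followed that of the 7 genes most closely for Itsn1 (Spearman's rho 0.72), Zbtb10 (0.72), Cited2 (0.62), Kcnj3 (0.56) and Epha5 (0.41), over the same 11 libraries, whose depth and total they share. None of these 5 hosts an annotated small nucleolar RNA. Itsn1, a scaffold of endocytosis, had 4, 1 and 0 resting tags in replicates 1 to 3 and 16, 12 and 27 in replicates 4 to 6. Among the 7 genes themselves, rho with the summed share of the other 6 was between 0.67 for Rack1 and 0.92 for 2410002F23Rik, and -0.38 for Gsk3b. The genes were chosen with the difference between replicates 1 to 3 and 4 to 6 known, so high values follow from the choice and are only a description.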

How the data were processed

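eIF4G2 CLIP tags were counted on 5′ UTRs in 12 libraries of mouse primary cortical neurons. Per the methods, the authors filtered reads, removed linkers and collapsed exact duplicates with CLIP Tool Kit (the submitters' processing notes also name cutadapt), aligned them to mm10 with Rsubread, and counted them with summarizeOverlaps over the 5′ UTR of each gene's longest UCSC knownGene transcript. The deposited values are these raw counts. Coordinates of the counted transcripts were not used here. The single row without a gene name held 0 tags. The methods give 5 biological replicates, the protocol 3 and the labels 6. Genes and lists were chosen with earlier results of these data known. The named genes were the 7 hosts, the other listed hosts with the most tags, the 5 5′ UTRs most like the summed share (at least 30 tags), and list genes with at least 10 tags; some items that met these rules are not reported here.

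Counts were tested with edgeR 4.0.16 (R 4.3.3, TMM, quasi-likelihood, Benjamini-Hochberg, at least 10 tags), with DESeq2 1.42.0 as an alternative. Summed tags were compared by the two-sided exact binomial test with a pseudocount of 0.1 (scipy 1.17.1). Both were run on simulated counts. Those for the binomial test were Poisson counts at greater depth, without added spread between libraries, so they do not show that pooling is sound here. Library sizes were totals over all named 5′ UTRs. Names were matched to GENCODE M21 for 3335 of 3366 genes.

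Per the labels, resting and depolarized libraries of a replicate were pooled after reverse transcription, and deviations of same-numbered libraries from their condition means correlated between 0.127 and 0.276 in all 5 pairs, so the numbers pair the libraries. Alternatives were another scaling, filter, pseudocount and threshold, a replicate block, the groups of replicates alone, and each replicate left out.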

Additional observations from a re-analysis of the deposited data

Results flagged for a closer look

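In 3 of 44 groups of libraries examined, the highest library stood apart from the rest by Dixon's criterion, where chance gives about 2.2. Resting replicate 1 had 3224 tags, where the next resting library had 928. Cnot1 had 0.155% of the tags of resting replicate 1, from 5 tags, where the next of replicates 1 to 3 had 0.0437%. Gsk3b had 0.980% of the tags of resting replicate 3, from 3 tags, where the next resting library had 0.270%.

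The difference between conditions had opposite signs in replicates 1 to 3 and in replicates 4 and 6, in every pair, for 3 shares of library tags. For the 7 genes together the depolarized share was lower by a mean of -4.65 percentage points in replicates 1 to 3 and higher by 3.10 in replicates 4 and 6. Without Gsk3b the means were -4.49 and 2.98, and for Tcp1 alone they were -0.797 and 4.51. Of the 7 single genes only Tcp1 had this pattern. The summed share of the 5 genes other than Tcp1 and 2410002F23Rik was lower in the depolarized library in 5 of 5 pairs, with differences between -0.098 and -3.70 percentage points. Rabggtb was lower in the depolarized library in 5 of 5 pairs, and 2410002F23Rik was lower in replicates 1 to 3 and in replicate 6. The difference between groups was not tested for the summed shares. For Tcp1 the interaction in edgeR's quasi-likelihood fit was 1.24 (SE 0.84) on the log2 scale, with an adjusted P of 0.957.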

How the results depend on the processing

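None of the 7 genes passed the adjusted threshold for condition in the main fit or in any of the 110 alternative values (99 kept their direction and 11 changed sign). Tcp1 changed sign to 0.0061 with library totals, 0.14 with all 12 libraries as labelled and 0.43 in replicates 4 to 6 alone, and ranged from -0.55 to 0.25 with each replicate left out. In replicates 4 to 6 alone 2410002F23Rik was at 0.31 and Ddx39b at 0.034, and in replicates 1 to 3 alone they were at -1.46 and -3.81. DESeq2 gave -1.54 for Ddx39b and -1.42 for Cnot1. Rack1 was at 0.14 with a term for the groups of replicates and at 0.62 in replicates 1 to 3 alone. With the replicate block Rack1 was at 0.080, the calls were 0 higher and 0 lower, and no call changed. The calls for condition were 1 higher with library totals and in replicates 1 to 3 alone, 1 lower of 24 tested in replicates 4 to 6 alone, and 0 to 7 higher with each replicate left out, 7 of 108 without replicate 1.

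The 5′ UTRs called lower in replicates 4 to 6 numbered 0 in resting libraries alone, 2 in depolarized libraries alone, 2 with library sizes that leave out the 7 genes, and 0 to 5 with each replicate left out. The interaction changed sign for Cnot1 (-1.74 to 1.33 with each replicate left out, negative without replicate 1) and for Gsk3b (-3.44 to 4.67, negative without replicate 4).

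Summed tags gave 44 5′ UTRs with more and 17 with fewer in replicates 4 to 6 alone, 233 with more and 90 with fewer at TMM library sizes, 84 and 41 at P below 0.05, 14 and 10 at adjusted P below 0.05, and 98 to 168 with more and 43 to 151 with fewer with each replicate left out, lowest without replicate 1. In replicates 4 to 6 alone the log2 ratio was 0.48 for Tcp1, 0.36 for 2410002F23Rik and 0.039 for Ddx39b, and in replicates 1 to 3 alone it was 0.071 for Rack1. Gsk3b lost its call without replicate 1 (0.81, P = 0.454 by the exact binomial test). With tags outside the 7 genes as denominator, the share in replicates 4 to 6 was 44.9%, 41.8% at rest and 49.5% after depolarization. The union of annotated 5′ UTRs gave Tcp1 177 tags per 100 bases. The causes were not tested. Depth limits the genes with the fewest tags most, and leaving out replicate 5, whose values were deposited under both conditions, gave a resting mean share of 16.1%.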
